A study of Mus musculus with 10 samples.

Results

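The aminoacyl-tRNA synthetases are the enzymes that join each amino acid to its transfer RNA. They were taken from the gene count table as the protein-coding genes whose GRCm38 symbol is 1 capital letter followed by ars, with or without a final 1 or 2, together with Eprs, Farsa and Farsb. This gave 37 of the 55573 genes listed: 18 genes for cytosolic enzymes, 17 for mitochondrial enzymes, and Gars and Kars, whose products serve both compartments. All 37 were among the 12772 genes that passed the filter on low counts, and the lowest count of any of them in a library was 82. RNA sequencing was done on bone marrow B cells of mice, B-cell progenitors per the study's design text, in 5 GFP high libraries labelled quiescent and 5 GFP low libraries labelled proliferating. All 10 libraries share the genotype PAX5-ELN H2B-GFP, doxycycline as treatment and a time of 35 days, and none comes from cells without the fusion. PAX5-ELN joins the B-lineage factor PAX5 to elastin and is known from B-cell acute lymphoblastic leukemia, and the GFP-tagged histone H2B is diluted as cells divide. The promoter of either transgene, the age of the mice, pooling of animals and the event that the time is counted from are not given in the sources used here.

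Cells keep separate sets of these enzymes for the ribosomes of the cytosol and for those of the mitochondria, all of them encoded in the nucleus. Several cytosolic enzymes sit in a multisynthetase complex held together by the scaffold proteins AIMP1, AIMP2 and EEF1E1, while the others act outside it. Mitochondria have no glutaminyl-tRNA synthetase: EARS2 charges that transfer RNA with glutamate, and an amidotransferase then converts the glutamate. Uncharged transfer RNA activates the kinase GCN2, whose downstream factor ATF4 raises many cytosolic synthetase genes together with genes of amino acid synthesis, and MYC is another known inducer of synthetase genes in growing cells.

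Total counts ranged from 10640894 to 14858520 per library. Both libraries numbered 4 and both numbered 5 stood apart from the rest on the second principal component, which carried 20.5% of the variance. Summed B-progenitor markers were at 15712 to 18499 CPM (counts scaled to library size) in GFP high, against 12130.2 to 14097 CPM in GFP low, with 5 of 12 markers higher and 0 lower. Markers of T cells were near 0, at 1.31 to 3.54 CPM in GFP high, against 1.06 to 2.16 CPM in GFP low over all 8 genes, with Themis at 0 in every library. Neutrophil markers reached 9.85 CPM in GFP high, against 7.16 CPM in GFP low over 8 genes, and none of the 3 tested passed. Plasma cell markers overlapped between the groups, at 922 to 1489.8 CPM in GFP high, against 803 to 1215 CPM in GFP low, with 2 of 7 tested genes higher and Jchain lower. The monocyte sum was 74.5 to 117 CPM in GFP high, against 44.0 to 84.4 CPM in GFP low, and the plasmacytoid dendritic cell sum 347 to 420.4 CPM in GFP high, against 302 to 364 CPM in GFP low, both overlapping. Erythroid markers summed to 18.1 to 40.9 CPM in GFP high, against 8.89 to 19.97 CPM in GFP low, and those of megakaryocytes to 4 to 6.30 CPM in GFP high, against 5.03 to 9.53 CPM in GFP low, with Gp1bb at 0. Called higher in GFP high were 1 of 2 tested monocyte genes, 2 of 4 plasmacytoid dendritic cell genes and 1 of 4 erythroid genes. None of these was called lower, and 0 of 2 tested megakaryocyte genes passed. The sums of NK cell markers (186 to 326 CPM in GFP high, 63.0 to 165 CPM in GFP low, Gzma and Eomes at 0) and of stromal and endothelial markers (245 to 291 CPM in GFP high, 134 to 172 CPM in GFP low), like that of B progenitors, lay wholly higher in GFP high, with 1 gene called in each list. Their part in the results was not tested. The proliferation marker Mki67 averaged 178 ± 60.7 CPM in GFP high, against 406 ± 136 CPM in GFP low (SD, n = 5 each), with a log2 fold change of -1.19 ± 0.27 (adjusted p = 0.00664). Here and below, ± is the SD for levels and the standard error (SE) for log2 fold changes.

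Comparing GFP high against GFP low asks how RNA levels in progenitors sorted as quiescent compare with those in progenitors sorted as proliferating. Of the 37 synthetase genes, 14 were lower in GFP high, 0 were higher and 23 did not pass the test (edgeR quasi-likelihood test, Benjamini-Hochberg adjusted over all genes tested, threshold 0.05). At an unadjusted p under 0.05, 15 were lower and 0 higher, and DESeq2 also called 0 higher. At the adjusted threshold, 15.4% of all tested genes were lower and 12% were higher. The shares of all genes at the unadjusted p were not counted. The log2 fold change (GFP high over GFP low) was negative for 33 of the 37 genes, against 47.1% of all genes, and its median was -0.22 against 0.03 over all genes. The lower genes were 9 of 18 cytosolic genes, 3 of 17 mitochondrial genes and both dual-use genes. The mitochondrial share, 17.6%, was close to that of all genes, while the cytosolic share was 50%. The changes were small: the called genes had log2 fold changes between -0.65 and -0.26. In 10 genes every GFP high library lay below every GFP low library, which held for 12.6% of all genes, and in 0 genes every GFP high library lay above, which held for 7.92% of all genes. In bulk RNA, fewer cells of a type and less RNA per cell cannot be told apart.

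Libraries with the same replicate number deviated together, and with the replicate number as a block 18 synthetase genes were lower and 0 higher, where 21% of all genes were lower and 20.7% higher. The block kept all 14 calls and added the cytosolic genes Lars, Wars and Mars and the mitochondrial gene Iars2. Of the 37 genes, 18 were lower in all 5 same-numbered pairs, against 23.1% of all genes. The share of all genes higher in all 5 pairs was not counted. Without the libraries numbered 4 and 5, 6 cytosolic, 1 mitochondrial and both dual-use genes were lower, beside 1629 of 13013 genes in all. With the libraries numbered 4 and 5 alone, 9 cytosolic, 3 mitochondrial and 1 dual-use gene were lower, beside 1432 of 12913. Leaving out both libraries numbered 3 gave 5 cytosolic, 2 mitochondrial and 1 dual-use gene, beside 1367 of 12816. Over all 18 fits run, Dars, Eprs, Farsb, Yars, Gars and Sars2 were called lower in each, and 27 of the 37 genes had a negative log2 fold change in each.

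**Figure D1:**
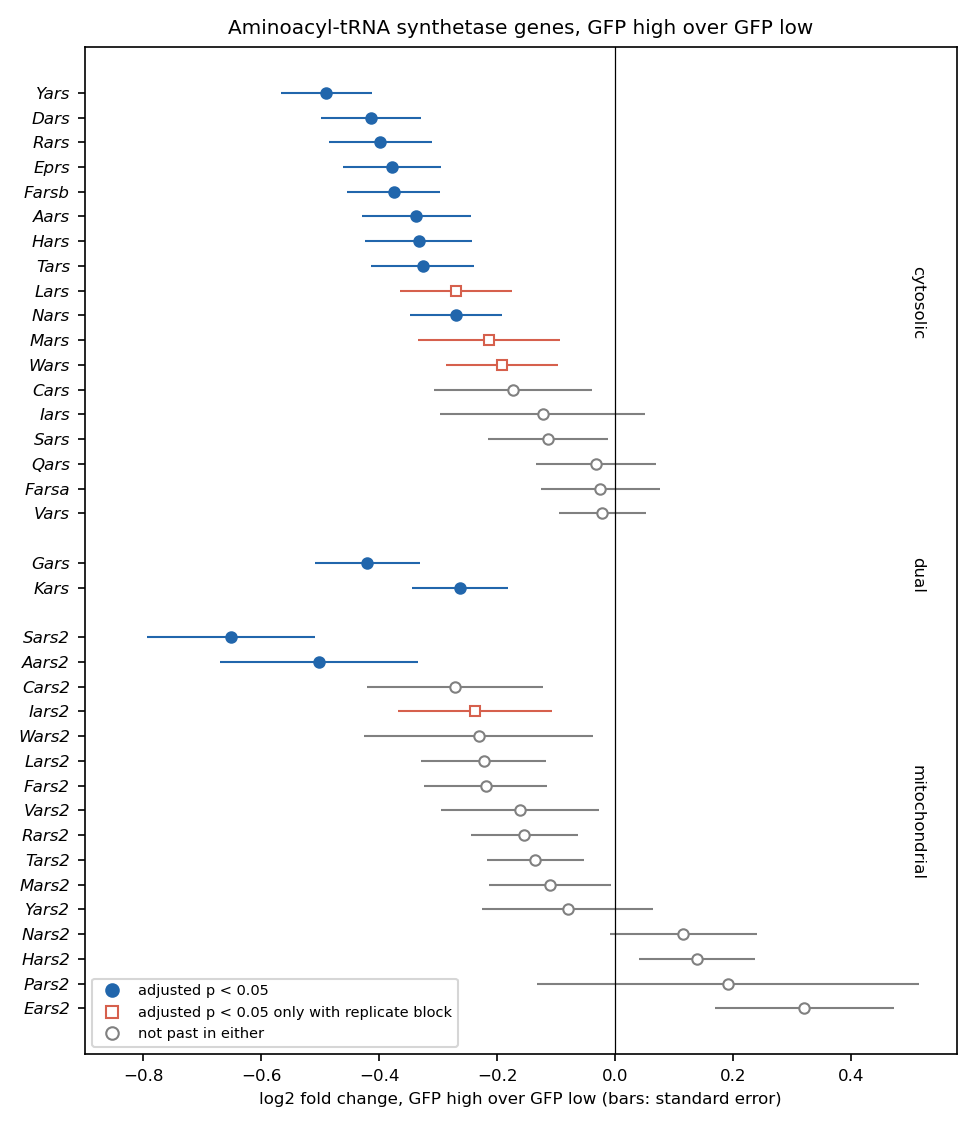
Log2 fold change of each synthetase gene reported, GFP high over GFP low, with its standard error as a bar (n = 5 libraries in each group), grouped into cytosolic, dual-use and mitochondrial enzymes. All 18 cytosolic genes and both dual-use genes lie left of 0, 13 genes are filled as past the threshold, and the 4 genes to the right of 0 are mitochondrial.

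Because ATF4 is the best known common regulator of cytosolic synthetase genes, the start regions of the members were read for the letters of the C/EBP-ATF response element, TGATGNAA, on both strands. The windows ran from 250 bases before to 50 bases after each RefSeq gene start (RefSeq, GRCm38.p6), and 27 of the 37 genes matched, in 28 windows. The letters were found in 5 windows, those of Aars, Gars, Iars, Tars and Yars, all cytosolic or dual-use, against 3.97% of all 32851 windows. The E-box CACGTG, which MYC and MAX can bind, was found in 5 windows too, those of Aars, Farsb, Iars, Tars and Ears2, against 7.15% of all windows. The stretches below hold a TGATGNAA match of each of these genes in capitals, read 5′ to 3′ on the strand of the match, so that the members that carry it can be compared with their expression in the following paragraphs.
Aars, chr8:111033840-111033869, minus strand, downstream of the start: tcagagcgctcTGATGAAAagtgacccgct
Iars, chr13:49682126-49682155, minus strand, downstream of the start: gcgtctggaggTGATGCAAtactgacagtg
Tars, chr15:11399655-11399684, plus strand, upstream of the start: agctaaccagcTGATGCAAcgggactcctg
Yars, chr4:129189895-129189924, plus strand, downstream of the start: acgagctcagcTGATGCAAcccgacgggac
Gars, chr6:55037960-55037989, minus strand, upstream of the start: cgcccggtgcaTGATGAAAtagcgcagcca
A match of letters is not evidence of binding. Of these 5 genes, Aars, Gars, Tars and Yars were called lower in GFP high, while Iars did not pass. The genes called lower whose window was read and lacked the letters were Dars, Eprs, Farsb, Kars, Sars2 and Aars2. The cytosolic genes Farsa, Mars, Qars and Sars also lacked them and did not pass. No window matched for the cytosolic genes Cars, Hars, Lars, Nars, Rars, Vars and Wars.

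Among cytosolic enzymes of class II, which share a catalytic fold distinct from that of class I, Dars was the most changed. Together with the dual-use enzymes, 8 of 10 cytosolic class II genes were lower in GFP high, with a median log2 fold change of -0.33. Of all tested genes, 15.4% were lower. Dars (ENSMUSG00000026356, mm10 chromosome 1, 128363707 to 128417368), the aspartate enzyme and a member of the complex, had 248, 255, 219, 264 and 280.2 CPM in GFP high libraries 1 to 5, against 306, 342, 317, 355 and 369 CPM in GFP low libraries 1 to 5. All GFP high libraries lay below all GFP low libraries, with a log2 fold change of -0.41 ± 0.08 (adjusted p = 0.00333). Farsb (ENSMUSG00000026245, mm10 chromosome 1, 78417975 to 78488897), the beta subunit of the phenylalanine enzyme, shares 9.47% of its exon length with Sgpp2 on the opposite strand. It had 119, 118, 111, 117 and 137 CPM in GFP high libraries 1 to 5, against 154, 149.9, 146, 167 and 164 CPM in GFP low libraries 1 to 5. The groups did not overlap, although GFP high library 5 was well above the other GFP high libraries, and the log2 fold change was -0.38 ± 0.08 (adjusted p = 0.00403). Its partner Farsa, the catalytic alpha subunit, averaged 91.8 ± 12.4 CPM in GFP high, against 93.5 ± 6.80 CPM in GFP low, a log2 fold change of -0.03 ± 0.10 (adjusted p = 0.877). The sign of the Farsa value turned when single libraries were left out, reaching 0.05.

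Tars (ENSMUSG00000022241, mm10 chromosome 15, 11382301 to 11399665), the threonine enzyme, had 113, 111, 110.1, 127 and 141 CPM in GFP high libraries 1 to 5, against 143, 146, 153, 163 and 150.2 CPM in GFP low libraries 1 to 5. Libraries 4 and 5 were the highest of GFP high and still lay below all of GFP low, and the log2 fold change was -0.33 ± 0.09 (adjusted p = 0.0149). For the alanine enzyme gene Aars (ENSMUSG00000031960, mm10 chromosome 8, 111033144 to 111057664), GFP high libraries 1 to 5 held 101, 121, 108, 115 and 121 CPM, against 121, 146, 139, 144 and 164 CPM in GFP low libraries 1 to 5. The highest GFP high library was just below the lowest GFP low library, and the log2 fold change was -0.34 ± 0.09 (adjusted p = 0.0166). The Aars call was lost when library 1 of GFP high was left out (adjusted p = 0.0661), and likewise for library 5 of GFP low (adjusted p = 0.0526) and for both libraries numbered 3 (adjusted p = 0.0705). With the libraries numbered 1 to 3 only, the adjusted p of Aars was 0.105. Exons of Aars share 14.3% of their length with Exosc6 on the same strand, so its count may include reads of that gene.

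Hars (ENSMUSG00000001380), the histidine enzyme, had 83.4, 74.9, 81.9, 90.5 and 102 CPM in GFP high libraries 1 to 5, against 99.5, 112, 115, 112 and 107 CPM in GFP low libraries 1 to 5. GFP high library 5 lay above GFP low library 1, so the groups overlapped, and the log2 fold change was -0.33 ± 0.09 (adjusted p = 0.0167). Without GFP high library 2 the Hars call was lost (adjusted p = 0.0526). For Nars (ENSMUSG00000024587), the asparagine enzyme, GFP high libraries 1 to 5 held 210.1, 188, 173, 175 and 193 CPM, against 234, 217, 218, 243 and 219 CPM in GFP low libraries 1 to 5. The groups did not overlap, with GFP high library 1 nearest to GFP low, and the log2 fold change was -0.27 ± 0.08 (adjusted p = 0.0221). The Nars call was lost without GFP high library 2, 3 or 4 or GFP low library 4, with adjusted p between 0.0531 and 0.0601. The serine enzyme gene Sars was the other class II gene that did not pass, with a log2 fold change of -0.11 ± 0.10 (adjusted p = 0.435).

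**Figure D2:**
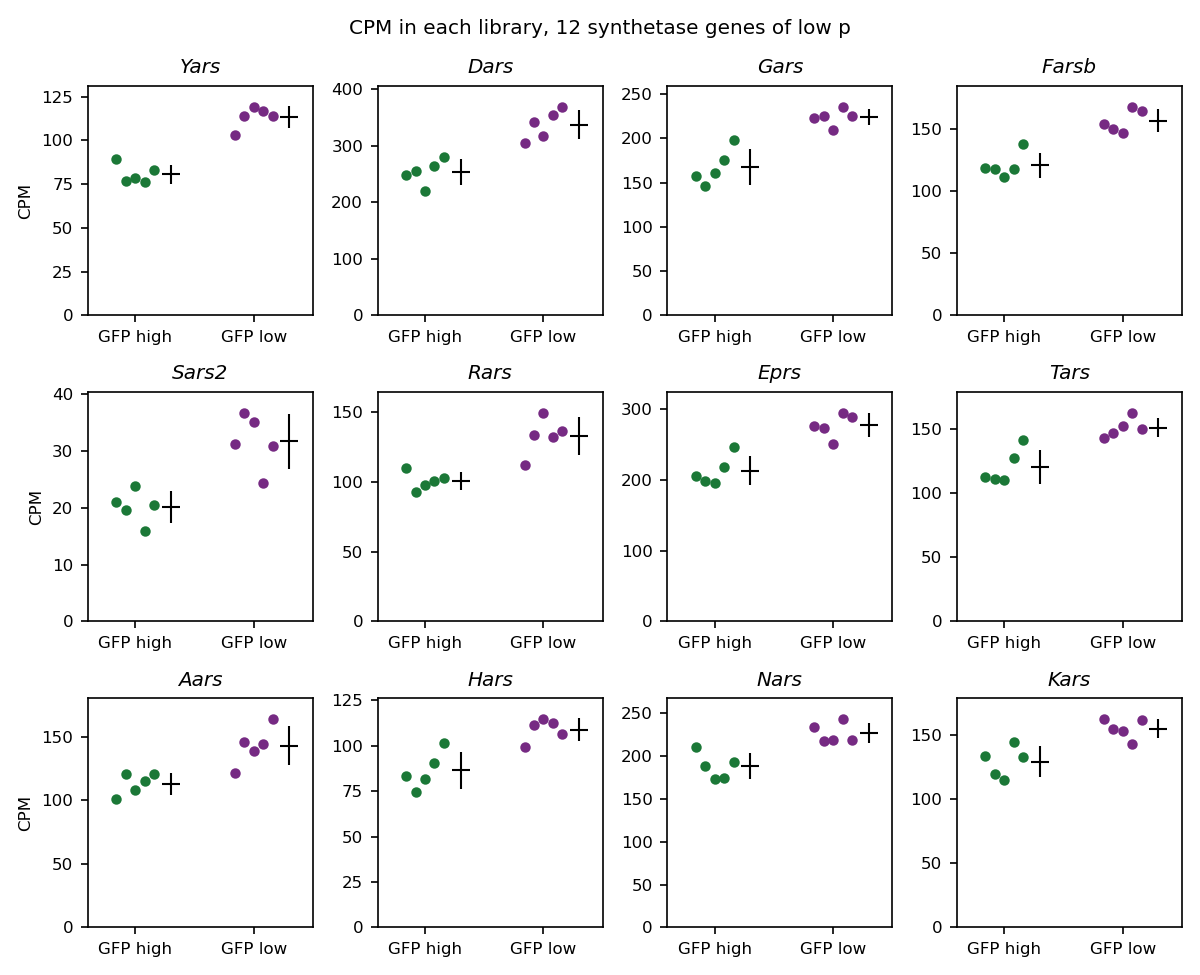
CPM of 12 of the synthetase genes with the lowest p, one point per library in replicate order within GFP high and GFP low, with the mean and SD of each group beside the points. The groups are apart in 10 of the panels and overlap in those of Hars and Kars.

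Among the 9 cytosolic class I genes, 2 were lower, Yars and Rars, a share of 22.2% against 15.4% of all tested genes. With the replicate block 5 were lower, against 21% of all genes. Yars (ENSMUSG00000028811, mm10 chromosome 4, 129189760 to 129219607), the tyrosine enzyme, had the lowest p of all synthetase genes, with 89.3, 76.9, 78.3, 76.5 and 83.2 CPM in GFP high libraries 1 to 5, against 103, 114, 119, 117 and 114 CPM in GFP low libraries 1 to 5. The highest GFP high library lay well below the lowest GFP low library, and the log2 fold change was -0.49 ± 0.08 (adjusted p = 0.000609). Rars (ENSMUSG00000018848, mm10 chromosome 11, 35808381 to 35834506), the arginine enzyme of the complex, had 109.9, 92.5, 98.0, 100.3 and 103 CPM in GFP high libraries 1 to 5, against 112, 133, 149, 132 and 137 CPM in GFP low libraries 1 to 5. Library 1 was the highest of GFP high and the lowest of GFP low, the groups did not overlap, and the log2 fold change was -0.40 ± 0.09 (adjusted p = 0.00506). With the libraries numbered 1 to 3 only, the Rars call was lost (adjusted p = 0.0531).

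Lars, the leucine enzyme whose product also senses leucine for mTORC1 signalling, was lower in 5 of 5 same-numbered pairs, with a log2 fold change of -0.27 ± 0.10 (adjusted p = 0.0516, and 0.00789 with the block). The tryptophan enzyme gene Wars was likewise lower in 5 of 5 pairs, with a log2 fold change of -0.19 ± 0.09 (adjusted p = 0.152, and 0.0223 with the block). Mars, the methionine enzyme, showed a log2 fold change of -0.21 ± 0.12 (adjusted p = 0.21, and 0.0386 with the block). Mars shares 68 exon bases with Ddit3 on the opposite strand. Cars, Iars, Qars and Vars did not pass in either fit. In Iars libraries 4 and 5 were the highest of either group, at 175 and 175 CPM in GFP high, against 173 and 186 CPM in GFP low, while the other libraries were at 105 to 135 CPM in GFP high, against 117 to 148 CPM in GFP low. A processed pseudogene, Gm4849, is 96% identical to Iars over 1656 bases, so reads of these could be split.

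Eprs (ENSMUSG00000026615, mm10 chromosome 1, 185363044 to 185428360) encodes a fused enzyme for glutamate and proline that joins both classes in 1 protein. Its level was 205, 199, 196, 218 and 246 CPM in GFP high libraries 1 to 5, against 276, 273, 251, 294 and 289 CPM in GFP low libraries 1 to 5. Every GFP high library lay below every GFP low library, and the log2 fold change was -0.38 ± 0.08 (adjusted p = 0.00512). Within the multisynthetase complex, 4 of 8 enzyme genes were lower (Dars, Eprs, Kars and Rars), with a median log2 fold change of -0.27. Outside it, 7 of 12 cytosolic or dual-use genes were lower, with a median of -0.30. Over all tested genes the share of lower genes was 15.4%. No test was run between these sets.

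Both dual-use genes were lower. Gars (ENSMUSG00000029777, mm10 chromosome 6, 55038007 to 55079500), from which separate start codons give a cytosolic and a mitochondrial glycine enzyme, had 158, 146, 161, 175 and 198 CPM in GFP high libraries 1 to 5, against 224, 226, 210.1, 236 and 226 CPM in GFP low libraries 1 to 5. Libraries 4 and 5 were the highest of GFP high, yet no GFP high library reached the lowest GFP low library, and the log2 fold change was -0.42 ± 0.09 (adjusted p = 0.00388). Kars (ENSMUSG00000031948, mm10 chromosome 8, 111993443 to 112011323), from which alternative splicing gives the 2 forms of the lysine enzyme, averaged 129 ± 12.03 CPM in GFP high, against 155 ± 7.78 CPM in GFP low (SD, n = 5 each). Its groups overlapped in the libraries numbered 4, and the log2 fold change was -0.26 ± 0.08 (adjusted p = 0.0313). The Kars call was lost without GFP high library 1, 2 or 3 or GFP low library 5, with adjusted p between 0.0525 and 0.0861.

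Of the 17 mitochondrial genes, 3 were lower, among them Sars2 and Aars2, and 13 had a negative log2 fold change. Sars2 (ENSMUSG00000070699, mm10 chromosome 7, 28741992 to 28753871), the mitochondrial serine enzyme, had the largest log2 fold change in size among the 37 genes, with 21.0, 19.5, 23.8, 15.9 and 20.5 CPM in GFP high libraries 1 to 5, against 31.3, 36.7, 35.2, 24.3 and 30.9 CPM in GFP low libraries 1 to 5. The groups did not overlap, although GFP low library 4 came close to GFP high library 3, and the log2 fold change was -0.65 ± 0.14 (adjusted p = 0.00497).

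The alanine enzyme gene Aars2 (ENSMUSG00000023938, mm10 chromosome 17, 45506841 to 45520843) averaged 12.7 ± 2.49 CPM in GFP high, against 18.1 ± 2.77 CPM in GFP low (SD, n = 5 each), with overlapping groups and a log2 fold change of -0.50 ± 0.17 (adjusted p = 0.0419). It was called in 8 of 18 fits. Among the 14 mitochondrial genes that did not pass, the log2 fold changes ranged from -0.27 for Cars2 to 0.32 for Ears2. The isoleucine enzyme gene Iars2 was the only one of them past the threshold with the block (-0.24 ± 0.13, adjusted p = 0.196, and 0.0258 with the block), and 22.9% of its exon length is shared with Rab3gap2 on the opposite strand. The other negative values were -0.23 for Wars2, -0.22 for Lars2, -0.22 for Fars2, -0.16 for Vars2, -0.15 for Rars2, -0.14 for Tars2, -0.11 for Mars2 and -0.08 for Yars2.

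Log2 fold changes above 0 were found in 4 genes, all mitochondrial, and none passed the test. Ears2, which starts both glutamyl- and glutaminyl-tRNA synthesis in mitochondria, had 15.4, 15.2, 12.6, 13.4 and 15.1 CPM in GFP high libraries 1 to 5, against 10.3, 11.1, 9.49, 12.3 and 14.1 CPM in GFP low libraries 1 to 5. It was higher in GFP high in 5 of 5 same-numbered pairs while the groups overlapped in the library numbered 5 of GFP low, and the log2 fold change was 0.32 ± 0.15 (adjusted p = 0.136, and 0.0921 with the block). The proline enzyme gene Pars2 had 11.01, 11.1, 6.52, 19.6 and 16.1 CPM in GFP high libraries 1 to 5, against 9.04, 6.93, 7.94, 18.2 and 14.1 CPM in GFP low libraries 1 to 5. Libraries 4 and 5 were the highest in both groups, and its log2 fold change of 0.19 ± 0.32 (adjusted p = 0.703) turned to -0.01 without GFP high library 4. Hars2 and Nars2 had log2 fold changes of 0.14 ± 0.10 (adjusted p = 0.321) and 0.12 ± 0.12 (adjusted p = 0.527).

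To set the compartments side by side, the cytosolic and mitochondrial enzymes of the same amino acid were paired, giving 18 pairs over 17 amino acids. The cytosolic gene had the more negative log2 fold change in 10 pairs, and the median difference of log2 fold changes, cytosolic minus mitochondrial, was -0.08. It lay between -0.22 and 0.01 over the alternatives, so its sign was not kept. The largest difference was that of Eprs and Ears2. Their log2 ratio of CPM, Eprs over Ears2, was 3.74, 3.71, 3.96, 4.02 and 4.03 in GFP high libraries 1 to 5, against 4.75, 4.62, 4.73, 4.59 and 4.35 in GFP low libraries 1 to 5. The groups of ratios did not overlap, with means of 3.89 ± 0.16 in GFP high, against 4.61 ± 0.16 in GFP low (SD, n = 5 each). Eprs alone was called lower, while the mean CPM of Ears2 was the higher one in GFP high without passing the test.

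The log2 ratio of Hars over Hars2 was 0.32, 0.51, 0.61, 0.77 and 0.76 in GFP high libraries 1 to 5, against 0.93, 1.26, 1.20, 0.94 and 1.002 in GFP low libraries 1 to 5. It too was lower in every GFP high library than in any GFP low library, with means of 0.59 ± 0.19 in GFP high, against 1.07 ± 0.15 in GFP low. Only these 2 of the 18 pairs had ratios that did not overlap between the groups. Among single genes, 12.6% had every GFP high library below every GFP low library, and 7.92% had every one above. The matching share for ratios of 2 genes was not counted. The pairs are not independent, as Eprs stands in those of both glutamate and proline. Hars and Hars2 lie head to head and share 195 exon bases on opposite strands, so reads of the shared bases may have been counted for either. Hars2 itself had 67.0, 52.5, 53.5, 53.3 and 60.1 CPM in GFP high libraries 1 to 5, against 52.1, 46.4, 49.97, 58.4 and 53.2 CPM in GFP low libraries 1 to 5. The groups of Hars2 overlapped, and the direction differed only in the libraries numbered 4.

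The serine pair went the other way. The log2 ratio of Sars over Sars2 was 2.46, 2.33, 1.88, 2.80 and 2.61 in GFP high libraries 1 to 5, against 1.81, 1.65, 1.67, 2.42 and 1.88 in GFP low libraries 1 to 5, with means of 2.42 ± 0.35 in GFP high, against 1.89 ± 0.32 in GFP low. GFP low library 4 lay within the range of GFP high, so these ratios overlapped. Sars, the cytosolic serine enzyme, had 115, 98.1, 87.7, 111 and 125 CPM in GFP high libraries 1 to 5, against 109.6, 115, 112, 130.4 and 114 CPM in GFP low libraries 1 to 5, and its GFP low library 4 was well above the other GFP low libraries. For alanine both enzymes were lower, as Aars and Aars2 had log2 fold changes of -0.34 and -0.50.

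For Yars, Farsb, Rars, Tars and Nars the mitochondrial counterpart did not pass. Yars2 had 56.3, 44.8, 56.0, 39.9 and 42.7 CPM in GFP high libraries 1 to 5, against 57.2, 52.2, 61.6, 42.5 and 40.1 CPM in GFP low libraries 1 to 5. Libraries 1 and 3 were high in both groups, and the groups overlapped. Fars2, the counterpart of Farsa and Farsb, had 33.3, 37.9, 36.2, 37.8 and 34.2 CPM in GFP high libraries 1 to 5, against 49.3, 44.5, 40.0, 36.6 and 38.4 CPM in GFP low libraries 1 to 5. GFP low library 4 lay within the range of GFP high, and the other GFP low libraries lay above it. The arginine counterpart Rars2 had 54.2, 52.5, 48.4, 57.5 and 58.5 CPM in GFP high libraries 1 to 5, against 55.4, 62.2, 55.8, 68.3 and 59.8 CPM in GFP low libraries 1 to 5. It was lower in GFP high in 5 of 5 pairs, by small amounts, and the groups overlapped.

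Tars2, the threonine counterpart, had 137, 108, 119, 125 and 125 CPM in GFP high libraries 1 to 5, against 122, 143, 140.3, 136 and 132 CPM in GFP low libraries 1 to 5. GFP high libraries 1, 4 and 5 lay within the range of GFP low, and GFP high libraries 2 and 3 lay below it. Nars2, the asparagine counterpart, had 47.2, 32.3, 33.1, 38.6 and 36.6 CPM in GFP high libraries 1 to 5, against 35.4, 29.5, 39.1, 35.6 and 33.8 CPM in GFP low libraries 1 to 5. GFP high library 1 was the highest of all libraries, and the other libraries of the groups were mixed.

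**Figure D3:**
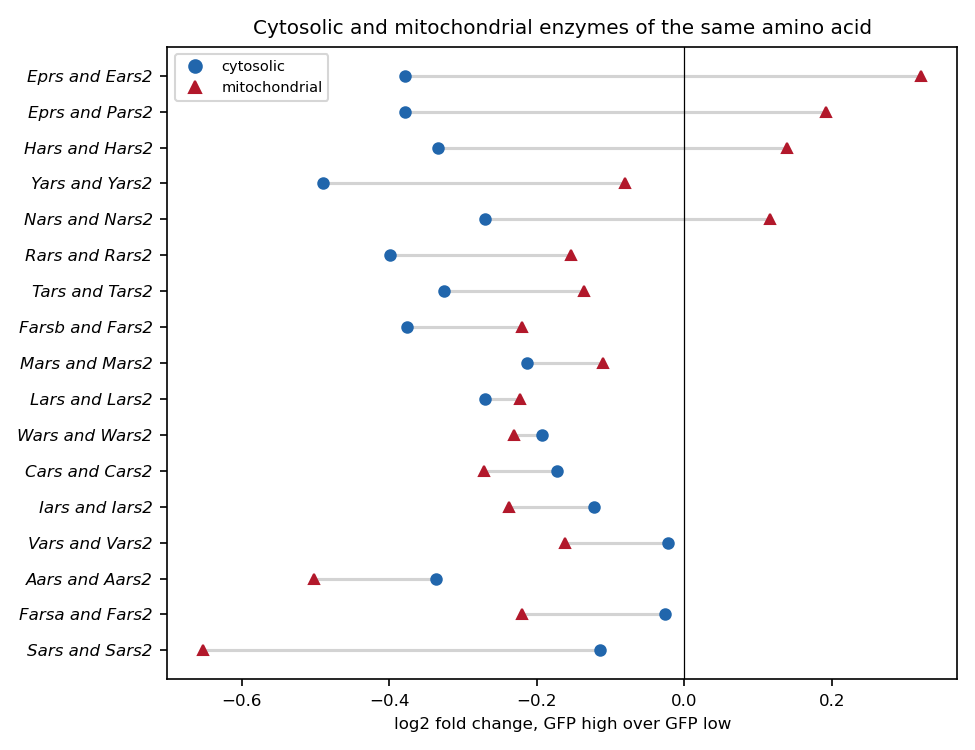
Log2 fold changes (GFP high over GFP low) of the cytosolic enzyme (circle) and the mitochondrial enzyme (triangle) of the amino acids shown, ordered by their difference, with Eprs shown against both Ears2 and Pars2. The cytosolic value is the lower one in the upper 10 pairs and the mitochondrial value in the others, of which serine has the widest gap.

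Levels between genes were compared as CPM per kb of exon. Lars2, the mitochondrial leucine enzyme, had the highest level of all 37 genes, at 149 CPM per kb in GFP high, against 174 CPM per kb in GFP low, followed in GFP high by Vars at 75.2 CPM per kb in GFP high, against 76.3 CPM per kb in GFP low. The lowest was Wars2 at 1.47 CPM per kb in GFP high, against 1.72 CPM per kb in GFP low. The median over cytosolic genes was 24.7 CPM per kb in GFP high, against 28.2 CPM per kb in GFP low, above the median over mitochondrial genes of 6.08 CPM per kb in GFP high, against 7.27 CPM per kb in GFP low. Taken per kb of coding sequence or of the longest transcript, all 4 medians were higher and Lars2 kept the first place. Such levels depend on which exons are in use, so the order of near neighbours can change with the length used.

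Lars2 stood apart from the other mitochondrial genes, whose sum it exceeded in every library. In CPM it had 1795, 1893, 1411, 1503 and 1675 CPM in GFP high libraries 1 to 5, against 1913, 2078, 2308, 1745 and 1617 CPM in GFP low libraries 1 to 5. The groups overlapped, GFP high library 3 being the lowest and GFP low library 3 the highest, and the log2 fold change was -0.22 ± 0.11 (adjusted p = 0.136, and 0.0511 with the block). Lars2 made up 69.5% to 76.4% of the summed mitochondrial synthetase CPM in GFP high, against 69.0% to 76.4% in GFP low. Whether all reads counted for Lars2 came from its own RNA was not tested, so its level and share are uncertain. The sum of all 17 mitochondrial genes averaged 2289.97 ± 197.5 CPM in GFP high, against 2640.3 ± 268 CPM in GFP low, with overlapping groups. Without Lars2 it averaged 635 ± 33.4 CPM in GFP high, against 708 ± 14.1 CPM in GFP low, and the groups did not overlap. The sum of the 18 cytosolic genes averaged 2506 ± 171 CPM in GFP high, against 2972 ± 157 CPM in GFP low, also without overlap (SD, n = 5 each).

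Vars, the cytosolic valine enzyme and the next in level in GFP high, had 439.9, 419, 396, 410.5 and 442 CPM in GFP high libraries 1 to 5, against 409, 392, 413, 447 and 478 CPM in GFP low libraries 1 to 5. The groups overlapped, and the log2 fold change was -0.02 ± 0.07 (adjusted p = 0.854), with a sign that turned when GFP low library 4 or 5 was left out.

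**Figure D4:**
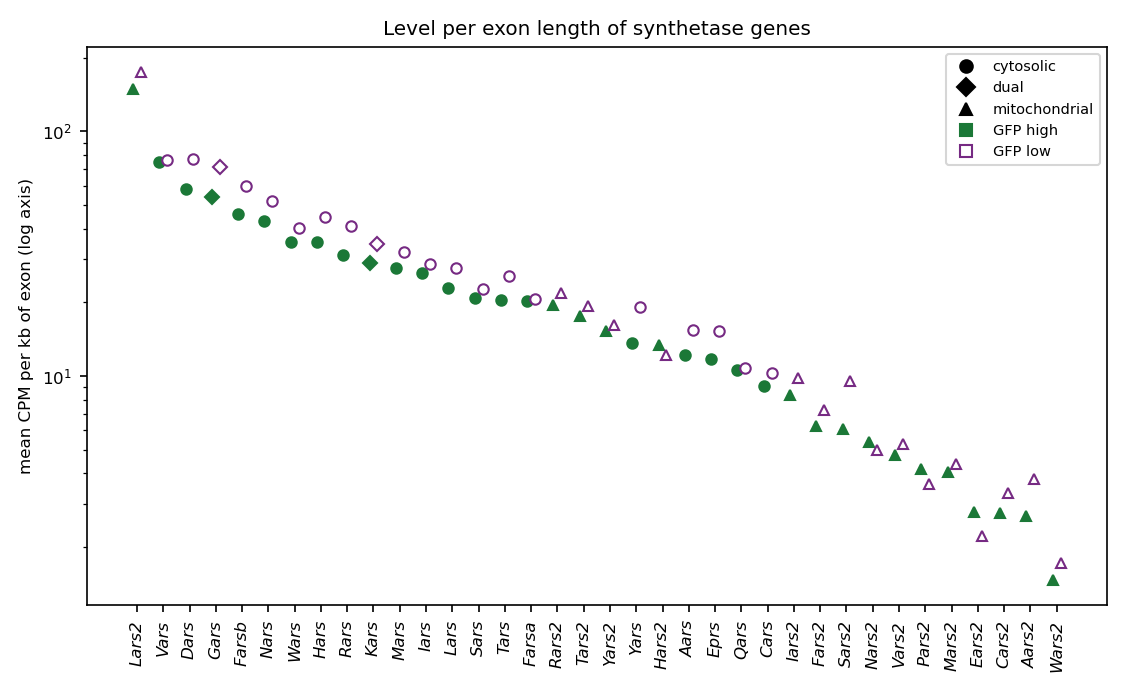
Mean CPM per kb of exon of each synthetase gene reported, on a log axis, ordered by the GFP high value, with filled symbols for GFP high and open symbols for GFP low (n = 5 libraries each) and the symbol shape giving the compartment. Lars2 lies highest at 149 and 174, and mitochondrial genes fill the lower end down to Wars2 at 1.47 and 1.72.

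The proteins around the enzymes were read from further lists of genes. Beside the counts that follow, 15.4% of all tested genes were lower and 12% higher. With the block these shares were 21% and 20.7%. Of the complex scaffold, 2 of 3 genes were lower in GFP high, with a median log2 fold change of -0.41. Aimp1, the scaffold protein next to Rars, had 38.7, 33.3, 37.5, 36.9 and 39.0 CPM in GFP high libraries 1 to 5, against 51.9, 58.3, 61.3, 53.0 and 54.6 CPM in GFP low libraries 1 to 5. Every GFP high library lay below every GFP low library, and the log2 fold change of -0.59 ± 0.09 (adjusted p = 0.000423) was larger in size than that of any enzyme gene of the complex. Aimp2 averaged 26.7 ± 2.95 CPM in GFP high, against 35.4 ± 6.10 CPM in GFP low, with a log2 fold change of -0.41 ± 0.14 (adjusted p = 0.0412), and its call was lost in 9 of 10 fits that left out 1 library. Eef1e1 averaged 62.4 ± 5.19 CPM in GFP high, against 68.9 ± 9.64 CPM in GFP low and did not pass (log2 fold change -0.14 ± 0.11, adjusted p = 0.355).

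On the mitochondrial glutaminyl-tRNA route, 0 of the 3 amidotransferase subunit genes passed with edgeR or with DESeq2, while 2 were lower at an unadjusted p under 0.05 and with the block. Gatc showed a log2 fold change of -0.43 ± 0.19 (adjusted p = 0.119, and 0.00326 with the block) and Gatb one of -0.38 ± 0.15 (adjusted p = 0.0859, and 0.0366 with the block), each lower in GFP high in 5 of 5 pairs. The catalytic subunit gene Qrsl1 showed a log2 fold change of -0.03 ± 0.13 (adjusted p = 0.869). These values stand beside the positive value of Ears2, which acts before them. Of 9 tested genes for other tRNA charging and proofreading steps, 2 were lower, and the block added Dtd2 (adjusted p = 0.0931, and 0.0419 with the block). Dtd1, which removes D-amino acids from transfer RNA, showed a log2 fold change of -0.72 ± 0.14 (adjusted p = 0.00236), and Tarsl2, a further threonyl-tRNA synthetase gene, one of -0.82 ± 0.21 (adjusted p = 0.0118, and 0.0505 without both libraries numbered 3). Pstk, the kinase that prepares seryl-tRNA for selenocysteine, did not pass (log2 fold change -0.35 ± 0.13, adjusted p = 0.0566).

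Of 21 tested genes of the ATF4 pathway, 8 were lower in GFP high and 2 were higher, with a median log2 fold change of -0.29. With the block 10 were lower and 4 higher. Of those that fell without it, 7 encode enzymes of amino acid or folate metabolism. Psat1, of serine synthesis, had 103, 98.5, 81.0, 98.6 and 111 CPM in GFP high libraries 1 to 5, against 175, 214, 225, 226 and 198 CPM in GFP low libraries 1 to 5. All GFP high libraries lay below all GFP low libraries, with a log2 fold change of -1.08 ± 0.10 (adjusted p = 2.14e-05). Phgdh, the first enzyme of serine synthesis, averaged 97.9 ± 14.9 CPM in GFP high, against 183 ± 21.5 CPM in GFP low (-0.90 ± 0.12, adjusted p = 0.0002). Mthfd2, of mitochondrial folate metabolism, averaged 34.9 ± 3.18 CPM in GFP high, against 65.5 ± 3.23 CPM in GFP low (-0.91 ± 0.09, adjusted p = 2.59e-05). The asparagine synthetase gene Asns averaged 14.7 ± 4.43 CPM in GFP high, against 26.8 ± 2.57 CPM in GFP low (-0.86 ± 0.19, adjusted p = 0.00586). Shmt2, Psph, Cth and the ATF4 partner gene Cebpg were the other lower genes, and the Cth call was lost in 6 of the 10 fits that left out 1 library. The block added Aldh18a1 (adjusted p = 0.123, and 0.0208 with the block) and Ddit4 (adjusted p = 0.325, and 0.0192 with the block) to the lower genes.

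The ATF4 pathway genes that rose without the block were Trib3, a pseudokinase gene that ATF4 and CHOP induce, with a log2 fold change of 0.85 ± 0.18 (adjusted p = 0.00348), and Cebpb, with 1.21 ± 0.37 (adjusted p = 0.0309). The Cebpb call was lost without GFP high library 1 or 3 or GFP low library 3 or 4, with adjusted p up to 0.0736, and both calls were lost in the libraries numbered 4 and 5 alone. The block added Atf3, a stress-induced transcription factor gene, which had 970.4, 292, 457, 52.4 and 36.7 CPM in GFP high libraries 1 to 5, against 459.9, 59.1, 265, 7.55 and 9.48 CPM in GFP low libraries 1 to 5. Its values spread widely within each group, yet it was higher in GFP high in 5 of 5 pairs, with a log2 fold change of 1.18 ± 1.07 (adjusted p = 0.445), against 1.65 ± 0.22 with the block (adjusted p = 6.82e-05). Ppp1r15a, which encodes the eIF2 alpha phosphatase subunit GADD34, was likewise higher in 5 of 5 pairs and passed with the block (adjusted p = 0.643, and 0.0177 with the block). Atf4 itself had 535, 552, 575, 273 and 218 CPM in GFP high libraries 1 to 5, against 501, 537, 600.3, 213 and 211 CPM in GFP low libraries 1 to 5. Both libraries numbered 4 and both numbered 5 were far lower than the others in either group, and the groups overlapped (log2 fold change 0.06 ± 0.35, adjusted p = 0.915). Ddit3, which encodes CHOP, showed the same split by library number, with a log2 fold change of -0.15 ± 0.49 (adjusted p = 0.848). In these 2 genes the sign turned when single libraries were left out. RNA levels say nothing of ATF4 protein, which is controlled at translation.

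Of 12 genes for the kinases of eIF2 alpha and their partners, 4 were lower and 1 was higher, Impact, which encodes an inhibitor of GCN2. Eif2s1, which encodes eIF2 alpha itself, averaged 216 ± 16.8 CPM in GFP high, against 351 ± 32.9 CPM in GFP low, with a log2 fold change of -0.70 ± 0.09 (adjusted p = 0.000117). The GCN2 gene Eif2ak4 averaged 65.9 ± 4.42 CPM in GFP high, against 61.5 ± 7.60 CPM in GFP low and did not pass (0.10 ± 0.10, adjusted p = 0.494). The subunit genes Eif2b4 (-0.28 ± 0.08, adjusted p = 0.025), Eif2b5 (-0.27 ± 0.08, adjusted p = 0.0274) and Eif2b1 of the exchange factor that acts on eIF2 were the other lower genes. The calls of Eif2b4, Eif2b5, Eif2b1 and Impact were lost in 7, 5, 7 and 4 of the 10 fits that left out 1 library, and all 4 were lost without both libraries numbered 3. Myc averaged 332 ± 88.6 CPM in GFP high, against 275 ± 67.1 CPM in GFP low, higher in GFP high in 5 of 5 pairs, with a log2 fold change of 0.27 ± 0.21 that passed only with the block (adjusted p = 0.359, and 0.00551 with the block).

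Of 14 tested amino acid transporter genes, 2 were higher and 2 lower, near the shares of all genes, with a median log2 fold change of 0.11. With the block 5 were higher and 4 lower, the added genes being Slc38a1, Slc38a9 and Slc7a7 among the higher and Slc7a1 and Slc36a4 among the lower, with blocked adjusted p between 0.0218 and 0.0478. Slc1a5, a glutamine transporter gene, had 754, 689, 1118, 606 and 650.3 CPM in GFP high libraries 1 to 5, against 447, 437, 496, 389 and 437 CPM in GFP low libraries 1 to 5. Every GFP high library lay above every GFP low library and GFP high library 3 was the highest of all, with a log2 fold change of 0.79 ± 0.15 (adjusted p = 0.00188). Slc7a5, the light chain of the LAT1 carrier for large neutral amino acids, averaged 76.4 ± 6.63 CPM in GFP high, against 107 ± 14.7 CPM in GFP low, with a log2 fold change of -0.48 ± 0.10 (adjusted p = 0.00431). Slc43a1, for another carrier of large neutral amino acids, also fell (-0.75 ± 0.12, adjusted p = 0.000755), while its relative Slc43a2 rose (0.66 ± 0.17, adjusted p = 0.0121).

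Of 9 genes for cytosolic elongation and termination, 6 were lower and 1 was higher, with a median of -0.41. With the block 8 were lower, as Eef1g and Eef2 were added. The elongation factor genes Eif5a (-0.62 ± 0.07, adjusted p = 7.59e-05), Eef1d (-0.51 ± 0.09, adjusted p = 0.00108) and Eef1a1 (-0.41 ± 0.09, adjusted p = 0.00449) fell in GFP high. Eef2k, the kinase that blocks elongation factor 2, was the gene that rose (0.39 ± 0.10, adjusted p = 0.0092). Eef1a1 belongs to a family with many near-identical copies, so its counts are uncertain.

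Among mitochondrial ribosomal protein genes, 43 of 74 tested were lower and 1 was higher, with a median log2 fold change of -0.38, and 51 were lower with the block. The count of lower genes was 24 without both libraries numbered 3, and 15 with the libraries numbered 4 and 5 alone. Examples were Mrpl18 (-0.61 ± 0.08, adjusted p = 0.000149) and Mrpl30 (-0.82 ± 0.11, adjusted p = 0.000182), and the gene that rose was Mrpl37, at 168 ± 5.99 CPM in GFP high, against 113 ± 6.40 CPM in GFP low (0.58 ± 0.07, adjusted p = 0.000112). Their share of lower genes can be set beside 3 of 17 for the mitochondrial synthetases, and no test was run between the lists. Of 11 mitochondrial translation factor genes, 3 were lower and 2 were higher. Tufm (-0.59 ± 0.12, adjusted p = 0.00262) and Tsfm (-0.47 ± 0.14, adjusted p = 0.0273), which bring charged transfer RNA to the mitochondrial ribosome, fell, and Mtif3, an initiation factor gene, rose (0.47 ± 0.14, adjusted p = 0.0238). The Tsfm call was lost in 6 of 10 fits that left out 1 library and the Mtif3 call in 1.

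Of 18 tested genes that mature or export transfer RNA, 4 were lower and 1 was higher, with a median of -0.21. With the block 8 were lower, as Rtcb, Trnt1, Pop4 and Rpp21 were added, with blocked adjusted p between 0.00454 and 0.0424. Pop1, a subunit of the RNase that trims the leading end of transfer RNA, averaged 8.78 ± 0.981 CPM in GFP high, against 19.0 ± 3.12 CPM in GFP low (-1.11 ± 0.16, adjusted p = 0.000322). Ssb, the La protein gene, also fell (-0.37 ± 0.07, adjusted p = 0.00225). Elac1, an endonuclease gene for the trailing end, averaged 22.0 ± 2.93 CPM in GFP high, against 10.1 ± 2.98 CPM in GFP low and rose (1.12 ± 0.19, adjusted p = 0.00114).

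**Figure D5:**
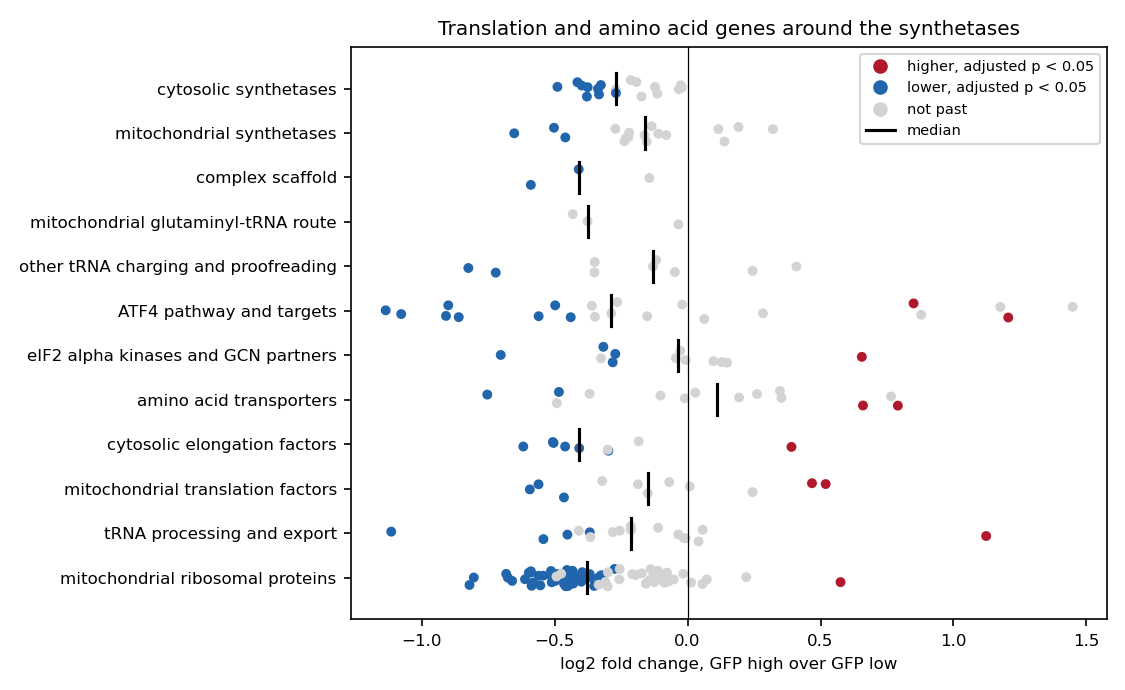
Log2 fold change (GFP high over GFP low) of each tested gene in the synthetase groups and in the lists of proteins around them, with genes past the threshold in colour and the list median as a bar. The medians lie at -0.27 for cytosolic and -0.16 for mitochondrial synthetases, at -0.38 for mitochondrial ribosomal proteins and at 0.11 for amino acid transporters.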

How the data were processed

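The deposited table held whole-number counts per Ensembl gene, not normalized, for 10 polyA RNA libraries made with a low-input amplification kit, per the labels. The submitters' processing notes name mm10, STAR, featureCounts and DESeq2, with no version or setting, so counts of overlapping or near-identical genes are uncertain; exons of 14 of the 37 members share positions with another gene. Symbols came from GENCODE M21 (GRCm38, the same build as mm10), and 99.833% of identifiers matched. Libraries were assigned by title. Whether each library stands for its own animal is not given in the labels, and p-values therefore reflect the spread between these samples, which may be technical. No libraries of a group agreed within sampling noise (lowest chi-square per gene 6.92).

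Counts were filtered with filterByExpr, scaled by TMM and tested with the edgeR 4.0.16 quasi-likelihood test in R 4.3.3 without covariates, with Benjamini-Hochberg adjustment over 12772 genes. The test was checked on simulated counts without any effect of replicate number, so that check does not cover the pairing described next. CPM used TMM-scaled library sizes. Deviations from the group means correlated between same-numbered libraries in all 5 pairs (0.248 to 0.353), each GFP high library best with its own number. For GFP high libraries 4 and 5 the margin was small (0.349 against 0.292, and 0.353 against 0.321 with another number). The numbers were taken to pair the libraries, and blocked values or counts are given where they change a call. Alternatives were RLE size factors, DESeq2 1.42.0, no filter, the block, leaving out libraries, and other lengths.

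Members called lower were given in full, at most 12 by lowest p, with their counterparts and the highest levels, and the 3 genes with the lowest p of each list plus Aimp1, Aimp2, Eef1e1, Atf4, Asns, Ddit3, Eif2ak4, Myc and Mki67. A synthetase gene and a sequence match are included in the counts but not reported here. Further genes that complete a count were named after their values were seen. The members and lists were chosen with earlier results of these data known.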

Additional observations from a re-analysis of the deposited data

Results flagged for a closer look

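Single libraries far from the rest of their group were looked for in the genes given above, and 7 of 146 groups of 5 libraries had one past Dixon's critical value of 0.71, where chance gives about 1 in 20. Among synthetase genes, Farsb had 137 CPM in GFP high library 5, against 119 CPM in the nearest and 111 CPM in the farthest library of that group. Without that library Farsb was still called lower. Sars had 130.4 CPM in GFP low library 4, where the nearest library had 115 CPM and the farthest 109.6 CPM. In the lists around the enzymes, Slc1a5 had 1118 CPM in GFP high library 3 (nearest 754 CPM). GFP high library 5 was also high for Mrpl18, at 113 CPM (nearest 96.7 CPM), and for Mrpl30, at 44.0 CPM (nearest 32.5 CPM). GFP low library 5 was low for Tufm, at 72.8 CPM (nearest 82.0 CPM), and high for Elac1, at 15.2 CPM (nearest 9.83 CPM). Thus 5 of the 7 values came from libraries numbered 5.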

How the results depend on the processing

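RLE size factors changed no call of a synthetase gene or of a gene named from the lists, and DESeq2 added Lars, Pstk and Eef1g. Without the filter, the synthetase calls of Nars, Aars2 and Kars were lost and 1 dual-use gene was lower. Of the list genes, 57 were lower there against 74, with Aimp2, Cth, Eif2b1, Eif2b4, Eif2b5 and Mrrf among those lost. With the replicate block, 2645 genes in all were higher against 1538, and Lars, Wars, Mars, Iars2 and Myc were added with no synthetase call lost, as were list genes, to 95 lower against 74 and 15 higher against 10. With 1 library left out, 7 to 10 cytosolic, 1 to 3 mitochondrial and 1 to 2 dual-use genes were lower, beside 1617 to 1940 genes in all. Without GFP high library 2, 1 mitochondrial gene was lower. Without both libraries numbered 3, 5 cytosolic and 1 dual-use gene were lower, as were 44 list genes against 74, while 6 list genes against 10 and 926 genes in all were higher. Tars (adjusted p = 0.0674), Hars, Nars, Aars and Kars were among the synthetase calls lost there. In replicates 1 to 3 alone, 1 mitochondrial gene was lower. In replicates 4 and 5 alone, 1 dual-use gene and 41 list genes were lower, and Tars (adjusted p = 0.104), Hars (adjusted p = 0.189) and Kars were lost while Cars (adjusted p = 0.0445) and Lars were added.

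The cytosolic median log2 fold change stayed between -0.30 and -0.22 and the mitochondrial one between -0.19 and -0.10. Signs turned in genes near 0 with 1 library left out: Farsa (-0.0692 to 0.0519), Qars (-0.0721 to 0.029), Vars (-0.0486 to 0.0278), Yars2 (-0.14 to 0.00683), Pars2 (-0.00749 to 0.44), Qrsl1 (-0.0839 to 0.0700), Atf4 (-0.0854 to 0.25) and Ddit3 (-0.43 to 0.18). They also turned for Farsa without both libraries numbered 3 (0.00262) and in replicates 1 to 3 (0.037), for Vars in replicates 1 to 3 (0.0717), and for Qrsl1 without both libraries numbered 3 (0.0188). In replicates 4 and 5 they turned for Mars2 (0.12), Wars2 (0.0225), Qrsl1 (0.16) and Ddit3 (0.41). Per kb of coding length, the median levels were 51.3 CPM in GFP high, against 63.7 CPM in GFP low for cytosolic genes, and 23.2 CPM in GFP high, against 27.0 CPM in GFP low for mitochondrial genes. Per kb of the longest transcript they were 31.2 CPM in GFP high, against 38.2 CPM in GFP low, for cytosolic genes and 10.7 CPM in GFP high, against 12.4 CPM in GFP low, for mitochondrial genes. The cause of these shifts was not tested. Pars2 and Wars2 had the lowest counts, down to 82 in a library, and the part of depth was not tested either.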

Other observations

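Among the lists around the synthetases, release, recycling and processing genes outside the naming rule also differed. They were picked once their values had been seen. The release factor genes Gspt1 (log2 fold change -0.50 ± 0.13, adjusted p = 0.0101) and Etf1 (-0.46 ± 0.15, adjusted p = 0.0398) were lower in GFP high. Of the genes that free the mitochondrial ribosome after termination, Mrrf was lower (-0.56 ± 0.18, adjusted p = 0.0337) and Gfm2 was higher (0.52 ± 0.16, adjusted p = 0.0283). The RNase P subunit gene Rpp30 (-0.45 ± 0.11, adjusted p = 0.0105) and the tRNA splicing endonuclease subunit gene Tsen15 (-0.54 ± 0.15, adjusted p = 0.0187) were lower, as was Pop1. Leaving out 1 library at a time, the calls of Mrrf, Etf1, Tsen15 and Gfm2 were lost in 8, 7, 4 and 3 of 10 fits. Jchain, a plasma cell gene, had 0.629 ± 0.408 CPM in GFP high, against 56.7 ± 23.4 CPM in GFP low (SD, n = 5 each), while the other plasma cell markers did not follow it, since 2 of them were higher in GFP high.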
